A study of Caenorhabditis elegans with 2 samples.

Results

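FOS-1, the worm member of the Fos family, had 355 autosomal peaks within promoter windows of genes on both strands at once. Promoter activity was not measured. These were the peaks whose summit lay in the promoter window of at least 1 plus-strand and at least 1 minus-strand protein-coding gene. The window covered the 1000 bp before the gene's annotated 5' end and the first 200 bp after it (build ce11, WBcel235 gene models of Ensembl release 115). They made up 23.1% (95% Clopper-Pearson interval 21.0 to 25.3) of the 1536 autosomal peaks in the irreproducible discovery rate (IDR) list. The IDR procedure scores how alike peaks rank between lists, and the deposited text calls its list derived from both replicates. That list held 1895 peaks in all. Of the other autosomal peaks, 607 lay in windows of genes on 1 strand only, called one-directional here, and 574 lay in no window.

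The assay was ChIP-seq, the sequencing of DNA brought down with a protein by an antibody, here for eGFP-tagged FOS-1 in whole L1 larvae, the first larval stage, as mixed-sex populations of unknown age in 2 biological replicates of 1 group. All animals were of strain OP304, genotype unc-119(ed3) III; wgIs304, in which an integrated transgene carries the tagged fos-1 and no fos-1 mutation is listed, so the tagged protein came from the transgene; the cells that express it are not given in the labels. Whole larvae pool all tissues, so a peak may stem from few cells or many. No group of control samples was analysed here. The replicate lists shared 1 control file, and the IDR list was built from those lists, so agreement between them is a description. Peaks are not replicates: the intervals of shares cover counting error over peaks or genes only, and neighbouring peaks and genes are not independent.

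A divergent promoter is a stretch between genes that are transcribed away from each other, and such stretches are common in the compact genome of Caenorhabditis elegans. Fos proteins are basic leucine zipper (bZIP) factors that bind as pairs with a partner such as Jun, classically at the AP-1 site TGACTCA. Many worm transcripts receive a spliced leader: the RNA upstream of the first acceptor site is cut away, so that the annotated 5' end of such a gene can be the acceptor site and not the place where transcription starts.

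The sequences around 4 of the strongest summits are shown first, because they carry the genes and letters described below. Each pair is written as plus-strand gene/minus-strand gene, and each sequence is the plus strand of ce11 as in the RefSeq genome of WBcel235, from 5' to 3'. Capitals mark the motifs searched and the word ACCGTA or its reverse complement TACGGT. The stretch at rpl-20 is IV:4750015-4750115, at rpl-15 IV:654864-654964 and at rps-1 III:4475610-4475710. Each is the 101 bases centred on the summit, in intergenic sequence. The gap between 5' ends is shown whole for pdtf-1 (IV:8432894-8433037).
Y17G9B.5/rpl-20: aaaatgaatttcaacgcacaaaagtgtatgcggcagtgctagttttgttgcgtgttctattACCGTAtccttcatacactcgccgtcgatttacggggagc
K11H12.8/rpl-15: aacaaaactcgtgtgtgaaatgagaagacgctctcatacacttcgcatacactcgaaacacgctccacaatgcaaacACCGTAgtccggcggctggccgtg
rps-1/ifet-1: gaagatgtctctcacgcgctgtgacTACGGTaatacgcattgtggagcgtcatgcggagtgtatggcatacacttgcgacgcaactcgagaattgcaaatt
pdtf-1/T26A8.4: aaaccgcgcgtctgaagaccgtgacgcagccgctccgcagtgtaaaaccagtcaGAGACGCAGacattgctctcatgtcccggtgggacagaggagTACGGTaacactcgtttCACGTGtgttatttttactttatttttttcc

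None of these 4 sequences held TGACTCA, which was found in 101 bases around the summit of 5 of the 355 peaks. Those 5 are shown because they are all the peaks with the classical Fos site in that window. Capitals mark the AP-1 site, as TGACTCA or its reverse complement TGAGTCA. They also mark GAGACGCAG, the reverse complement of the searched motif CTGCGTCTC, at mes-6/tag-77, and the searched motif GGGCGG at alx-1/mog-1. Within 100 bp on each side of the summit, 2.54% of the 355 peaks held TGACTCA. The 5 stretches shown lay at III:10742625-10742725, IV:8510698-8510798, V:13909567-13909667, III:9956836-9956936 and III:2725321-2725421.
rib-2/tbb-1: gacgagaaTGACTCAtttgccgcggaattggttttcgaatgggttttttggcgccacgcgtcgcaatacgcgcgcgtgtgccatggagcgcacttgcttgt
mes-6/tag-77: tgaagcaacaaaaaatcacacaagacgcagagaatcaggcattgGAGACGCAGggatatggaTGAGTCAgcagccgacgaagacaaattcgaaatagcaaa
C06B3.7/C06B3.6: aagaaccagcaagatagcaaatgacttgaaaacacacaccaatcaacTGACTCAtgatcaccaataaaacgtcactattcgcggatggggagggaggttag
alx-1/mog-1: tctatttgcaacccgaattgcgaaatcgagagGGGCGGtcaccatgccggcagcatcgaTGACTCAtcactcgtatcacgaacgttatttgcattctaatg
cosa-1/Y71H2AM.11: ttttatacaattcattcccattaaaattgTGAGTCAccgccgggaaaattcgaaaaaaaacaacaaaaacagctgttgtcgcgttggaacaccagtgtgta

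Divergent promoter sequence held far more summits for its length than other promoter sequence. The autosomes had 2586 separate divergent stretches, 1.98 Mb in all, and 353 of them (13.7%) held an IDR summit, against 594 of 16401 one-directional stretches (3.62%). Summit density was 180 per Mb (95% Poisson interval 161 to 199) in divergent and 37.0 per Mb (34.1 to 40.0) in one-directional sequence, a ratio of 4.86. Divergent stretches lie closer to 5' ends, so density was also taken by distance to the nearest 5' end. It was 213.7 against 58.5 per Mb at 100 to 199 bp and 45.5 against 18.9 per Mb at 500 to 1000 bp, where 9 divergent summits lay. Divergent sequence was the denser at each of the 5 distances, by 2.41 to 5.48 times. At 500 to 1000 bp the Poisson intervals overlapped (20.8 to 86.5 against 15.7 to 22.7 per Mb). Each divergent base lies in windows of genes on both strands, and density was not adjusted for this. Counting only bases outside protein-coding genes, a choice added after seeing the data, gave 265 and 57.4 per Mb, and 1.85 to 5.98 times by distance.

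**Figure D1:**
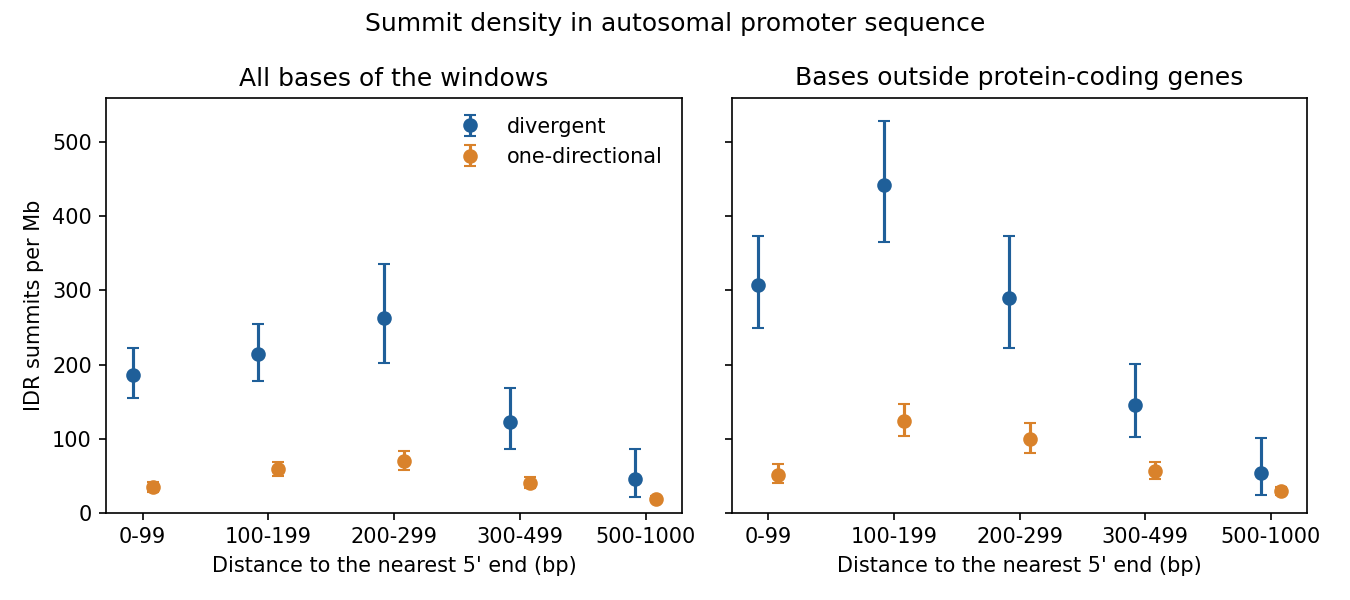
IDR summits per Mb of autosomal promoter sequence (vertical axis) by distance to the nearest annotated 5' end in bp (horizontal axis), for divergent and one-directional sequence, over all bases (left) and over bases outside protein-coding genes (right). Points are densities and bars 95% Poisson intervals. The divergent points lie above the one-directional points at every distance, and the bars overlap at 500 to 1000 bp.

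Of all 17242 autosomal protein-coding genes, 1351 (7.84%) had an IDR summit in their promoter window. Among them, 731 of the 5285 autosomal genes that have a divergent stretch (13.8%) had a summit in it, and 814 of them (15.4%) had a summit anywhere in their window, against 537 of 11957 genes without such a stretch (4.49%). One divergent summit counts for a gene on each strand, and counting only the gene with the nearest 5' end gave 438 (8.29%) and 513 (4.29%). The pairs were spread over all 5 autosomes, with 92 peaks on I, 55 on II, 83 on III, 67 on IV and 58 on V. The share of divergent stretches holding a summit was highest on III (19.6%, 15.9 to 23.7) and I (19.4%, 15.9 to 23.3) and lowest on V (8.22%, 6.30 to 10.5), whose interval overlapped that of II (10.6%, 8.09 to 13.6) only. The 355 peaks fell on 353 distinct gene pairs; the pairs sld-2/larp-5 and vps-32.1/icd-1, named after their values were seen, had 2 summits each.

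The divergent share was larger among peaks of higher signal. By pooled signal, the authors' own value whose scale is not stated, the share was 28.6% (23.6 to 34.0) in the highest of 5 equal groups of autosomal IDR peaks and 17.9% (13.8 to 22.7) in the lowest. The 3 groups between them had 25.4%, 22.5% and 21.2%, so the share fell at each step, although neighbouring intervals overlapped. Autosomal entries of the pooled list below its 1536 of highest signal, the number of autosomal IDR peaks, were also taken. There the divergent share was 6.53% in the upper and 2.04% in the lower of 2 equal parts. These entries were cut by rank and not matched to the IDR list. Median signal was 68.7 (quartiles 52.5 and 96.6, range 42.6 to 357) at divergent, 63.1 at one-directional and 60.8 at other autosomal peaks. The ratio of the divergent to the one-directional median was 1.09 (1.01 to 1.15, from the binomial interval of the divergent median), and it was 1.04 (0.976 to 1.11) without the ribosomal protein peaks. With only peaks of above-median signal it was 1.05 (0.981 to 1.11), and with windows of 500 bp also 1.05 (0.991 to 1.12), so these 3 intervals included 1.

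**Figure D2:**
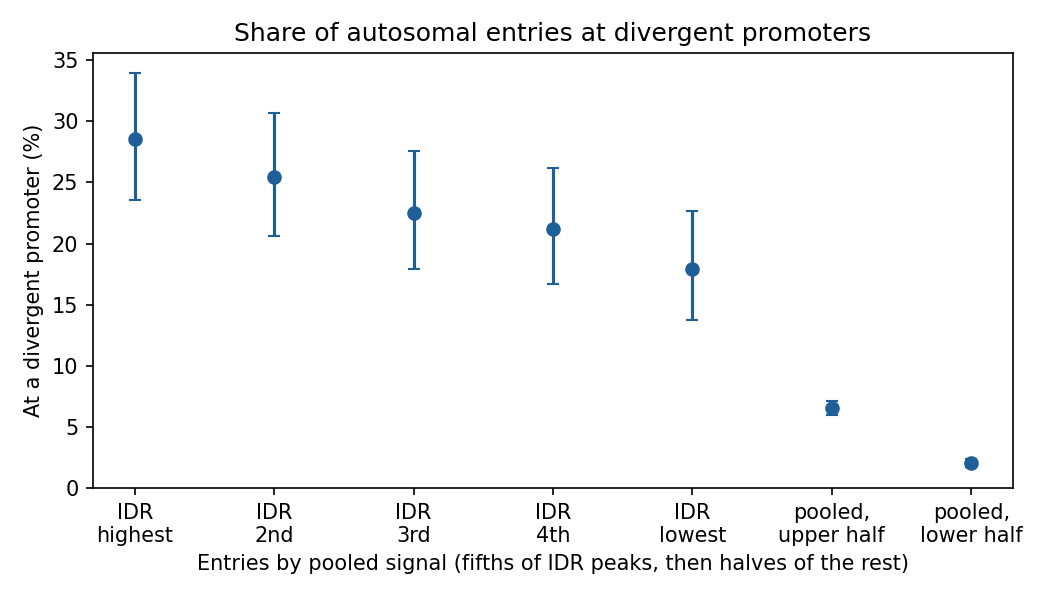
Percent of autosomal entries at a divergent promoter (vertical axis), with 95% Clopper-Pearson bars. The horizontal axis gives 5 equal groups of IDR peaks by pooled signal. After them come 2 equal parts of the autosomal pooled entries below the 1536 of highest signal. The share goes from 28.6% in the highest group to 2.04% in the lowest part.

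Both replicates listed nearly all the sites. An entry of replicate 1 overlapped 352 of the 355 peaks by at least 1 bp and one of replicate 2 overlapped 353, with 350 (98.6%, 96.7 to 99.5) in both. The replicate lists also hold weak entries (29801 and 23483 entries), so the 1895 entries of highest signal in each were used as a stricter measure. By that measure 255 peaks (71.8%, 66.8 to 76.5) were in both, 55 in replicate 1 only, 40 in replicate 2 only and 5 in neither. Median rank was 829.5 in replicate 1 and 839 in replicate 2, against 969.5 and 950 for one-directional peaks. Over the 350 peaks the replicate signals had a Spearman rho of 0.651 and a Pearson r of 0.707 on the log2 scale. The replicate lists share a control file, and the IDR list was built from them. The peak at rpl-34/ppm-1.H, named after its values were seen, had the largest difference in rank, 1111 in replicate 1 and 20892 in replicate 2. As a ratio of ranks the peak at ints-2/trm-1, likewise chosen, stood farther apart, with 827 and 18318.

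**Figure D3:**
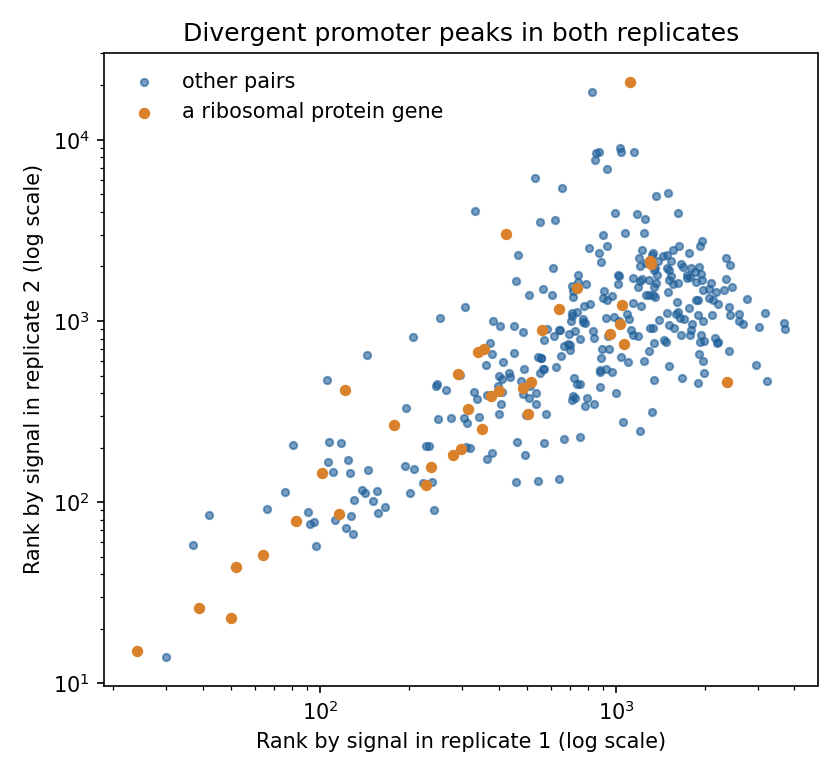
Rank by signal in replicate 1 (horizontal, log scale) and replicate 2 (vertical, log scale) of the 350 divergent peaks listed in both, with pairs that include a cytosolic ribosomal protein gene in orange. Strong sites lie along the diagonal from rank 24 and 15 (Y17G9B.5/rpl-20), and 1 orange point lies at rank 20892 in replicate 2.

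Of the 10 strongest sites, 5 had a cytosolic ribosomal protein gene on 1 strand, against 36 of all 355 (10.1%) on at least 1 strand. The strongest was at rpl-20, a protein of the large ribosomal subunit (IV:4749946-4750169, signal 357, ranks 24 and 15 in replicates 1 and 2). Next came tasp-1, a threonine aspartase, with K01G5.10 (III:10759140-10759374, signal 338, ranks 30 and 14). After it came rps-12, of the small ribosomal subunit, with ska-3 (III:5679033-5679230, signal 295, ranks 39 and 26).
The other 7 were K11H12.8/rpl-15, tag-340/nhl-2, lin-54/rpl-12, F54C9.14/iff-2, ekl-4/rps-20, rpn-3/hsp-110 and pdtf-1/T26A8.4, with signals from 284 down to 204. Here nhl-2 encodes a cofactor of small RNA silencing, lin-54 the DNA-binding part of the DREAM repressor, iff-2 a translation factor of the eIF5A family, rpn-3 a lid subunit of the proteasome and hsp-110 a chaperone. The weakest sites were mix-1/R06F6.12, at 42.6, and slc-25A32/gei-14; mix-1 encodes a condensin subunit. The genes of FOS-1 and its Jun partner were not among the pairs: neither fos-1 (V:6003601-6016087) nor jun-1 (II:9113157-9132231) has a divergent stretch, fos-1 had 0 IDR summits in its window and jun-1 had 1, at a one-directional promoter.

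Genes of the cytosolic ribosome were bound more often than the background of 13.8%. Of 51 such genes with a divergent stretch, 39 (76.5%, 62.5 to 87.2) had a summit in it. Of the 27 without one, 19 (70.4%) had a summit in their window, so the share was high with and without a divergent neighbour. The 39 genes belonged to 36 peaks, 3 of them with ribosomal protein genes on both strands (rpl-36/rps-14, rpl-24.1/rps-10 and rps-30/rpl-39, the last named after its values were seen). Their median signal was 100.2 against 65.7 at the other 319 divergent peaks, and their median ranks were 354.5 and 413.5 in replicates 1 and 2, against 884 and 895. The list's symbols left out rpl-7A and rpl-36.A, which also stood at divergent peaks. With them, a choice made after their values were seen, 41 of 53 genes (77.4%, 63.8 to 87.7) at 38 peaks had a summit, and the medians were 99.2 and 65.5.

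Only a minority of these ribosomal protein genes were the nearer gene. At 11 of the 33 peaks with a ribosomal protein gene on 1 strand only, that gene had the nearer 5' end (13 of 35 with rpl-7A and rpl-36.A). As the nearest gene of a divergent summit, 14 of the 51 genes (27.5%, 15.9 to 41.7) were counted, against 355 of the 5285 genes with a divergent stretch (6.72%). The summit lay a median 296 bp upstream of the ribosomal protein gene and 189 bp upstream of its partner at the 33 peaks. At rps-12/ska-3 these distances were 156 and 137 bp, and at rpl-20 the summit was 287 bp from rpl-20 and 175 bp from Y17G9B.5.

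Other genes that every cell uses were also above the background of 13.8%, with wide intervals. The splicing list had 15 of 34 genes (44.1%, 27.2 to 62.1), led by prp-40 of the U1 particle, prp-19, and snr-6, an Sm-type core protein. Chaperones had 17 of 40 (42.5%, 27.0 to 59.1), led by hsp-110, and by cct-1 and cct-8 of the CCT chaperonin. Genes of secretion and trafficking had 12 of 31 (38.7%, 21.9 to 57.8), with trap-3 and sec-61.B, parts of the endoplasmic reticulum translocon, sharing 1 peak (signal 162).
These 3 lists, like the ribosomal proteins, had intervals that lay wholly above 13.8%. So did the proteasome, with 9 of 24 (37.5%, 18.8 to 59.4; rpn-3, pas-4 and rpn-5), the translation factors and tRNA synthetases, with 12 of 37 (32.4%, 18.0 to 49.8; eef-1A.1, eef-2 and eef-1G), and the vacuolar ATPase and respiratory chain, with 10 of 36 (27.8%, 14.2 to 45.2; vha-8, atp-1 and atp-3). The last 2 lists also missed symbols. With the translation factors iff-1, iff-2 and inf-1 added after the values were seen, that list had 13 of 40 (32.5%), led by iff-2, and with further complex I genes the respiratory list had 14 of 51 (27.5%, 15.9 to 41.7), led by nduc-2 (signal 182.6).

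Counting only the nearest gene, against the background of 6.72%, the proteasome had 8 of 24 (33.3%, 15.6 to 55.3) and translation factors 7 of 37 (18.9%, 7.96 to 35.2), both with intervals above it. Secretion had 5 of 31 (16.1%, 5.45 to 33.7), the vacuolar ATPase and respiratory chain 6 of 36 (16.7%, 6.37 to 32.8), splicing 5 of 34 (14.7%, 4.95 to 31.1) and chaperones 4 of 40 (interval 2.79 to 23.7%), and their intervals included 6.72%. The intervals of these 4 lists therefore lay above the background only by the count that takes genes on both strands. Genes were named by signal, and the summit was nearer the partner at hsp-110, cct-1, cct-8, prp-19, sec-61.B, eef-1A.1, vha-8 and nduc-2. It was nearer the named gene at prp-40, snr-6, trap-3, rpn-3, pas-4, rpn-5, eef-2, eef-1G, atp-1, atp-3 and iff-2.

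In 4 further lists the interval included the background. General transcription had 6 of 21 (28.6%; taf-4, mdt-19 and rpb-3), nuclear pore and transport 6 of 25 (24.0%; npp-3, imb-1 and ran-5), cell cycle and DNA replication 7 of 30 (23.3%; rfc-4, cye-1 and sld-2) and mitochondrial ribosomal proteins 6 of 28 (21.4%; mrps-7, mrpl-49 and mrpl-17). These counts do not set the lists apart from genes with a divergent stretch in general.

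Chemoreceptors, the largest list, were below the background, with 4 of 243 (1.65%, 0.450 to 4.16). The strongest of these sites were at sri-5, srh-16 and srr-10, and the partner of sri-5 was rsr-1, an SR-related splicing gene. Histones, cuticle collagens and nuclear hormone receptors had lower shares than the background, but their intervals included 13.8%. Histones had 5 of 66 (7.58%, 2.51 to 16.8), led by htz-1, the variant H2A.Z, and his-67/his-68. Cuticle collagens had 3 of 39 (7.69%; col-38, col-2 and col-71) and nuclear hormone receptors 3 of 45 (6.67%; nhr-142, nhr-47 and nhr-68). Of the bZIP and MAP kinase genes only zip-4 and kgb-1, a JNK-type kinase, stood at a divergent peak; only 2 and 4 genes of these lists have a divergent stretch, and zip-4 and kgb-1 were named after their values were seen.

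**Figure D4:**
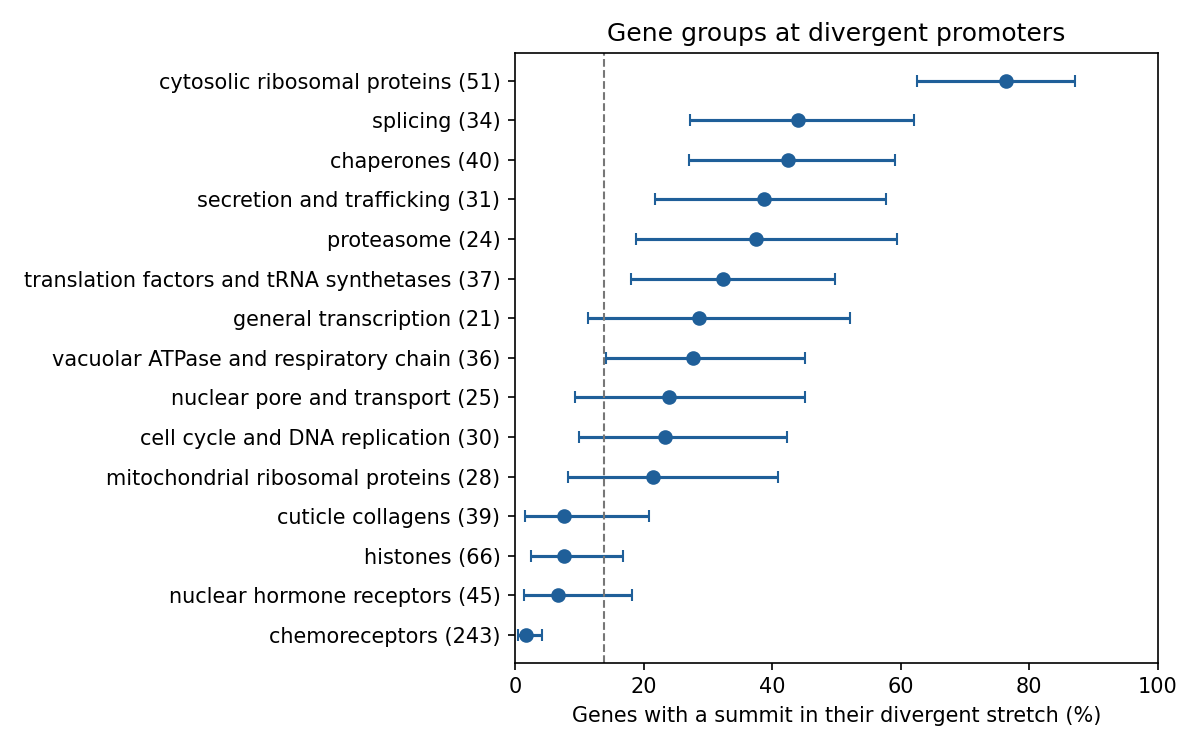
Percent of genes with a divergent stretch that held an IDR summit in it (horizontal axis), by gene list with the number of genes in parentheses, for lists of at least 10 genes. Points are shares, bars 95% Clopper-Pearson intervals and the dashed line the 13.8% of all autosomal genes with such a stretch; ribosomal proteins lie at 76.5% and chemoreceptors at 1.65%.

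Some peaks joined listed genes on both strands: 21 of the 355 (5.92%), of which the 10 of highest signal were rpn-3/hsp-110, rfc-4/eef-1A.1, trap-3/sec-61.B, prp-40/clu-1, mrpl-49/rpl-28, rpl-36/rps-14, rpl-24.1/rps-10, rpl-5/col-38, rsp-1/rsp-2 and nhr-47/dnj-19. The share of all divergent stretches with listed genes on both strands was not counted. The 5.92% therefore has no background here and is a description. At rfc-4/eef-1A.1 a clamp loader subunit of DNA replication faces translation elongation factor 1A, and rsp-1/rsp-2 holds a pair of SR splicing factors. The peaks at rpl-5/col-38 and nhr-47/dnj-19 joined a gene of a list above the background with a cuticle collagen or a nuclear hormone receptor gene.

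The summit usually lay between the opposed 5' ends. It did so in 327 of 355 peaks (92.1%, 88.8 to 94.7), lay downstream of 1 end in 26, and in 2 the windows belonged to genes whose 5' ends cross. The windows reach 1000 bp upstream but only 200 bp downstream, and the share of divergent sequence between the ends was not computed. One-directional peaks were alike, with the summit upstream of the 5' end in 573 of 607 (94.4%, 92.3 to 96.1). The gap between the nearest opposed 5' ends had a median of 476 bp (quartiles 298 and 734.5), against 707 bp for all divergent stretches. Gaps of 201 to 400 bp held a summit most often (24.0% of 450 stretches), those over 1000 bp least often (4.12% of 897). For the length of divergent sequence in them, these were 311 and 80.9 summits per Mb. The summit was a median 145 bp from the nearer and 324 bp from the farther 5' end. At one-directional peaks the distance was 247 bp, to the nearest end on 1 strand only. The nearer distance is the smaller of 2 by definition, so 145 and 247 bp are unlike measures. The summit was intergenic in 323 peaks (91.0%), in a 5' UTR in 23, in an intron in 6 and in a coding exon in 3. At one-directional peaks 84.7% were intergenic. Bases outside protein-coding genes made up 1.22 of the 1.98 Mb of divergent and 8.96 of the 16.4 Mb of one-directional sequence.

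Part of the summits lay close to both genes. The summit was within 200 bp of both ends in 86 peaks (24.2%, 19.9 to 29.0) and within 200 bp of the nearer end in 247 (69.6%), and the distances to both ends differed by at most 50 bp in 63 (17.7%, 13.9 to 22.1). The nearer gene was on the plus strand in 189 (53.2%, 47.9 to 58.5). Replicate summits lay a median 19.5 bp apart, and the nearer gene was the same in the IDR list and both replicates in 314 of 350 (89.7%, 86.0 to 92.7). At the edge of the rule, anmt-2 was included at 989 bp and nasp-2 at 988 bp, while C49H3.6 at 1009 bp and nep-18 at 1026 bp would have added peaks that now count as one-directional; these 4 genes were named after their values were seen.

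**Figure D5:**
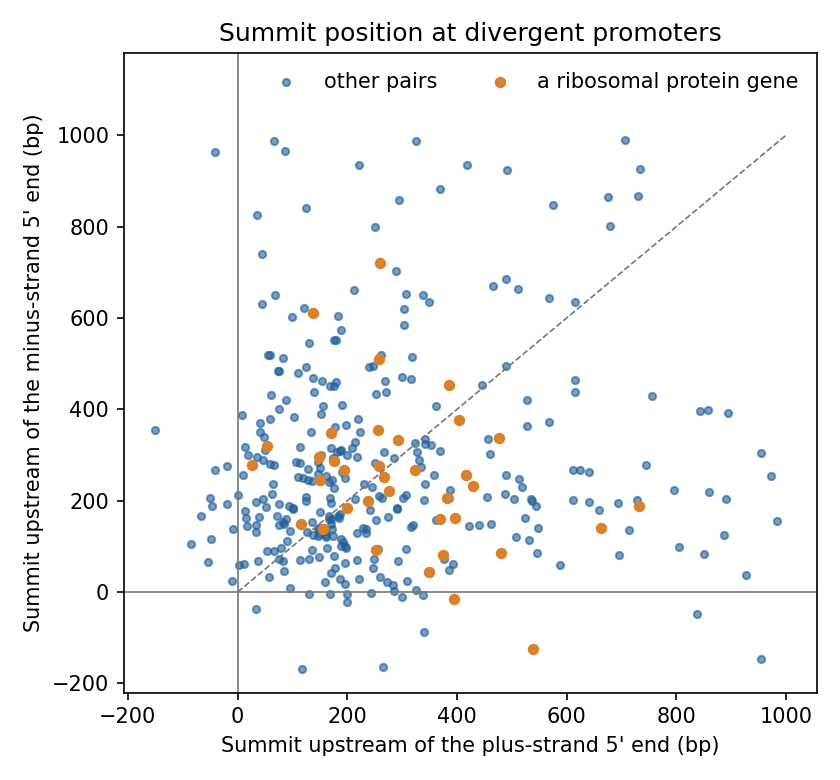
Distance in bp of the summit upstream of the nearest plus-strand 5' end (horizontal) and minus-strand 5' end (vertical) for the 355 divergent peaks, with pairs that include a cytosolic ribosomal protein gene in orange. Values below 0 lie downstream of the 5' end, the dashed line marks equal distances, and most points lie within 400 bp of both axes.

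The letters at the 5' ends varied with the position of the summit. The acceptor letters TTNCAG stood directly before 252 of the 710 nearest 5' ends (35.5%, 32.0 to 39.1), against 18.9% of all 5' ends of autosomal genes with a divergent stretch and 38.2% of the nearest ends of one-directional peaks. The summit lay a median 256 bp upstream of ends with these letters and 185 bp upstream of ends without them. In 176 peaks only 1 end had the letters, and in 116 of these (65.9%, 58.4 to 72.9) the summit was nearer the end without them. The share was 118 of 176 with the summits of replicate 1 and 115 of 175 with those of replicate 2, and 100 of 157 without the ribosomal protein pairs. These letters, searched on the gene's strand, were looked at after the values were seen, and a match is a description of the letters and no proof of a spliced leader. Ribosomal protein ends held them in 30 of 39 cases. The gaps of hex-3/fbxb-85 (III:10848964-10849221) and eef-1G/ctf-4 (V:10965540-10965718) show the pattern, with the letters in capitals before hex-3, at the right end, and before ctf-4, at the left end on the other strand, and the summit nearer to fbxb-85 (64 against 195 bp) and to eef-1G (34 against 146 bp).
hex-3/fbxb-85: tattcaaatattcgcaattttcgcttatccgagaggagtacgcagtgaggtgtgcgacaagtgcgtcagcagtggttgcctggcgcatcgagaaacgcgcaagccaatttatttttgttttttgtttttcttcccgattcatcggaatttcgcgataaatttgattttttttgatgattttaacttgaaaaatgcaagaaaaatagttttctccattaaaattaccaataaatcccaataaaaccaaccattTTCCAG
eef-1G/ctf-4: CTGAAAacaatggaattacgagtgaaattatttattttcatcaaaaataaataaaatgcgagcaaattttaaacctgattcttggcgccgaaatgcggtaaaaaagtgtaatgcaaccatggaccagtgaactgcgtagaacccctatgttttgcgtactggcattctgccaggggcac

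The AP-1 site was listed at fewer divergent than one-directional summits, with a difference whose interval included 0 under several alternatives. TGACTCA, searched on both strands within 50 bp of the summit, was in 5 of 355 (1.41%, 0.459 to 3.26), against 25 of 607 one-directional peaks (4.12%, 2.68 to 6.02), a difference of -2.71 percentage points (95% Newcombe interval -4.77 to -0.44). The interval included 0 with the entries of replicate 2 alone (-2.03, -3.92 to 0.09), in the higher-signal part of the list (-2.16, -5.10 to 1.07), within 25 bp of the summit (-1.34, -3.05 to 0.64) and with windows of 2000 bp (-1.35, -3.44 to 0.91). Under the other alternatives it lay below 0, for example within 100 bp of the summit (-4.38, -6.98 to -1.56) and with replicate 1 alone (-3.20, -5.21 to -1.06). TGACTCA was in 5.23% of peaks in no window, in 0.986% of windows 400 bp to either side of the divergent summits and in 0.657% of the centres of all 2586 divergent stretches. The 5 sites were at rib-2/tbb-1 (signal 115.9), where tbb-1 encodes a beta-tubulin and rib-2 an enzyme of heparan sulfate synthesis, and at mes-6/tag-77 (115.1), where mes-6 encodes a Polycomb group protein. The others were at C06B3.7/C06B3.6 (72.0), at alx-1/mog-1 (51.1), where mog-1 encodes a germline RNA helicase, and at cosa-1/Y71H2AM.11 (44.2), where cosa-1 encodes a crossover factor of meiosis. None of the 36 ribosomal protein peaks held it, which allows a share of up to 9.74% by the exact interval.

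Some other motifs stood at the summits more often than beside them. The motifs were chosen with earlier results of these data known, so this excess is a description. GAGAGAG was in 32 peaks (9.01%, 6.25 to 12.5), against 0.845% of flanks, 12.5% of one-directional peaks and 27.9% of peaks in no window. CTGCGTCTC was in 26 (7.32%, 4.84 to 10.5), against 0 of the flanks, 11.0% and 16.7%. The differences from one-directional peaks, -3.51 points (-7.35 to 0.68) and -3.71 points (-7.28 to 0.19), had intervals that included 0.
GGGCGG was in 6.20% against 1.55% of flanks and TGATAA, by contrast, in 2.82% against 8.87%. TGACGTCA and TTGCGCAA were each in 3 peaks (0.845%) and CACGTG in 9 (2.54%), close to its 1.97% of flanks. Neither gene of a pair was faced clearly more often: GAGAGAG read toward the nearer gene in 15 of 32 peaks and CTGCGTCTC in 13 of 26. None of the 8 motifs was found in 261 peaks (73.5%, against 64.3% of one-directional peaks), and no match says only that these letters were not in the window. GC content was a median 45.5% around the summit and 37.6% and 36.6% to either side.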

How the data were processed

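The values were the authors' deposited region lists in ce11, made per the deposited text files from each replicate's alignments and a shared control file, from both replicates pooled, and by the IDR procedure; the sources used here do not give the aligner, peak caller, IDR threshold or read depth. Each entry's signal, as deposited by the authors, is on a scale that is not stated, so replicates were compared by rank. Summits were placed in promoter windows of WBcel235 genes (17242 autosomal protein-coding genes) with pandas 2.3.3, numpy 2.4.6 and scipy 1.17.1 under Python 3.11.15, and figures drawn with matplotlib 3.10.9; overlap meant at least 1 bp. Placing, overlap and motif search were tested on simulated data. Shares carry 95% Clopper-Pearson intervals, densities exact Poisson and differences Newcombe intervals; no p-values were computed, as 1 group allows no test between conditions. The members, the 17 gene lists and the 8 motifs were chosen with earlier results of these data known. Gene lists were matched by gene symbol and not by function. For example, cdk-9 counted under cell cycle and DNA replication and lsm-1 under splicing, both named after their values were seen. Named genes were fos-1 and jun-1, both nearest genes of the 10 strongest and 2 weakest peaks, up to 3 genes of highest signal in lists with 3 or more genes at a peak, up to 10 peaks with both genes listed, and peaks with TGACTCA; others are said to be named after their values were seen. The lists deposited in ce10 were not used here. Alternatives covered the windows, gene ends, gene assignment, peak list, replicates, ribosomal protein genes, overlap, motif windows and symbols that 3 gene lists had missed.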

Additional observations from a re-analysis of the deposited data

How the results depend on the processing

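The divergent share was 16.7% with windows of 500 bp upstream and 100 bp downstream, 30.01% with 2000 bp upstream, and 26.3% when only IDR peaks of above-median signal were kept; the density ratio was 6.55, 3.74 and 5.55. With entries of 1 replicate alone the share was 22.1% in both and the ratio 4.80. The ribosomal protein share was 27.5% by nearest gene only. With 25 bp on each side, CTGCGTCTC and GAGAGAG were at 4.23% each, or 4.23 and 3.66 points over the flanks. TGACTCA was at 0.389% with the shorter window. Peaks among the top entries of both replicates were 71.8%. The other 99 of 112 values lay within the intervals of the values reported. The excess of TGACTCA over the flanks, 0.42 points with an interval that included 0, was -0.58 points with the shorter window and 0.0 with replicate 1 alone. No paired analysis was possible because all samples form 1 group. Read depth is unknown, so a missing entry is not absence of binding.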

Other observations

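Of all 6-letter words, the 8 that stood out most at the divergent summits over their flanks were picked from these peaks, so their shares there are a description; peaks of the other classes were not used to pick them. From these 8, ACCGTA was singled out for the widest gap between divergent and one-directional peaks, so that gap is also a description. ACCGTA or its reverse complement TACGGT, searched on both strands within 50 bp of the summit, was in 69 of the 355 divergent peaks (19.4%, 15.4 to 23.9), in 2.25% of their flanks and in 4.56% of the centres of all divergent stretches. It was in 40 of 607 one-directional peaks (6.59%, 4.75 to 8.87) and in 14 of 574 peaks in no window (2.44%). At divergent peaks of ribosomal protein genes it was in 17 of 36 (47.2%, 30.4 to 64.5), among them rpl-20, rpl-15, rps-20 and rps-1. At the 21 one-directional peaks of ribosomal protein genes it was in 8 (38.1%, 18.1 to 61.6), against 32 of the other 586 (5.46%). Among the strongest entries of each replicate, it was in 17.4% and 16.04% of divergent and 5.28% and 6.06% of one-directional sites. Its centre lay within 25 bp of the summit in 47 of the 69 peaks.

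GACGCA differed from ACCGTA in being about as frequent at each class: 20.3% of divergent, 20.4% of one-directional and 23.0% of no-window peaks. It is contained in GAGACGCAG, the reverse complement of CTGCGTCTC, so each site of that motif is also a GACGCA site. CTGCGTCTC itself was in 7.32%, 11.0% and 16.7% of the same classes. CGCTCC was in 19.7%, 9.23% and 3.83% of these classes. A small RNA or tRNA gene lay in the interval of 9 divergent peaks (2.54%) and 35 one-directional peaks (5.77%).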
